A study of Sus scrofa with 6 samples.

Results

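Circular RNAs (circRNAs) arise when the spliceosome joins the downstream end of an exon to the upstream end of the same or an earlier exon, a reaction called back-splicing. The product is a closed loop without free ends, which resists exonucleases and outlasts most linear transcripts, and testis is among the tissues known to hold many such loops. Loops built from exons are mostly exported to the cytoplasm, and the number of exons they take in depends on which pair of splice sites, often far apart in the gene, was joined.

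The circRNAs described here have many exons. They were chosen as all exonic circRNAs with 8 or more annotated exons between their back-splice ends, which gave 311 of the 2552 exonic circRNAs (12.2%) among 4350 circRNAs in the table analysed here, which holds only part of the circRNAs of the study. They are called many-exon circRNAs in what follows and are set against 1590 circRNAs of 3 to 7 exons and 651 of 1 or 2 exons. Testis RNA came from 3 Piglet-D30 boars, aged 30 days and not yet sexually mature, and from 3 Adult-D210 boars, aged 210 days and sexually mature, to ask how circRNAs differ between these stages. All 6 were Landrace boars for which the labels name no treatment, and each library came from the testis of 1 boar. Ribosomal RNA was depleted and linear RNA digested with RNase R before sequencing. Each table entry gave the number of reads across the back-splice junction and its SRPBM, the same number scaled by the library's mapped reads and by read length, so that the values are levels per mapped read.

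Piglet-D30 replicate 1 stood apart from the start, because every one of the 2552 exonic circRNAs had at least 1 read in it, against 1004 to 1247 in each of the other 5 libraries. The table thus lists exonic circRNAs seen in that library, on chromosomes 7, 8, 12 and 13, and exonic circles seen only in other libraries were not analysed here. In replicates 1 to 3, exonic back-splice reads numbered 31630, 17150 and 17617 for Piglet-D30 and 22487, 13542 and 12018 for Adult-D210. The main class and stage comparisons are given with and without the first library. Read totals and medians per circle, host read shares and rankings by reads include it, and it held 1607 of the 4511 many-exon reads. Markers could check the labelled tissue only in part. Of 20 germ cell genes, 3 (PIWIL1, MOV10L1 and KIT) were hosts of a circRNA in the table, as were GATA4 of 8 Sertoli cell genes and STAR and CYP17A1 of 7 Leydig cell genes. ACTA2 of 3 peritubular myoid genes, CD163 of 3 macrophage genes and 0 of 3 endothelial genes were also listed. Reads on the germ cell genes summed to 28, 13 and 13 in Piglet-D30, against 24, 2 and 1 in Adult-D210, most of them from MOV10L1, and DDX4 and DAZL had no circRNA under their symbols. On the Sertoli cell genes the sums were 7, 0 and 1 at 30 days and 0, 0 and 0 at 210 days, and on the Leydig cell genes 12, 6 and 4 at 30 days and 12, 14 and 16 at 210 days. The myoid and macrophage genes had 1 read each, in Piglet-D30 replicate 1. Of the 44 marker genes looked up by symbol, 0 hosted an exonic circRNA of any exon number under that symbol, and thus no many-exon one. A host listed only by an Ensembl identifier would be missed by this search. Such a host, ENSSSCG00000030671, has germ cell development among its deposited terms and gave a many-exon circle described further on.

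Exon numbers thinned out quickly above the limit. Of the 311 many-exon circRNAs, 101 had 8 exons, 68 had 9, 43 had 10, 30 had 11 and 20 had 12. A further 35 had 13 to 15 exons and 14 had 16 or more. Within the table the circle with the most exons was circRNA11171 of FANCD2, a gene of Fanconi anaemia DNA repair, with 21 exons and 1 read. Next came circRNA11122 of CNTN3, a neuronal cell adhesion molecule, with 19 exons and 1 read, and circRNA11913 of MYH15, a myosin heavy chain, with 19 exons and 3 reads. These extremes thus rest on 1 to 3 reads each. The exon number is that of the annotation between the joined ends. A junction read does not show whether every exon between them was kept in the circle.

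Many-exon circRNAs covered long stretches of the genome, introns included. Their span ran from 2421 to 206602 nt with a median of 26654 nt (n = 311) and quartiles at 16380 and 45080 nt. The median was 10020 nt for circles of 3 to 7 exons and 1851 nt for circles of 1 or 2 exons. A longer span follows from the choice by exon number. The median span per exon did not go up steadily with exon number: it was 3058 nt with 7 exons, 2568 nt with 8, 2581 nt with 9, 3197 nt with 10, 2882 nt with 11 or 12, 2240 nt with 13 to 15 and 3895 nt with 16 or more. Just inside the limit, the 101 circles with 8 exons had a median span of 20540 nt, a median of 5 and a mean of 14.5 reads, and 5.94% were in all 6 libraries. Just outside it, the 131 circles with 7 exons had a median span of 21410 nt, a median of 6 and a mean of 24.7 reads, and 9.92% were in all 6 libraries. A single read was found for 15.8% with 8 exons and 15.3% with 7, and a read only in Piglet-D30 replicate 1 for 38.6% and 34.4%, so that several of the class contrasts given further on are gradual and do not begin at 8 exons. The longest, circRNA10632 of the Rab GTPase activator gene TBC1D5, held 15 exons in 206602 nt and had 2 reads. The shortest, circRNA10908 of the deubiquitinase gene USP19, packed 9 exons into 2421 nt and also had 2 reads.

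**Figure D1:**
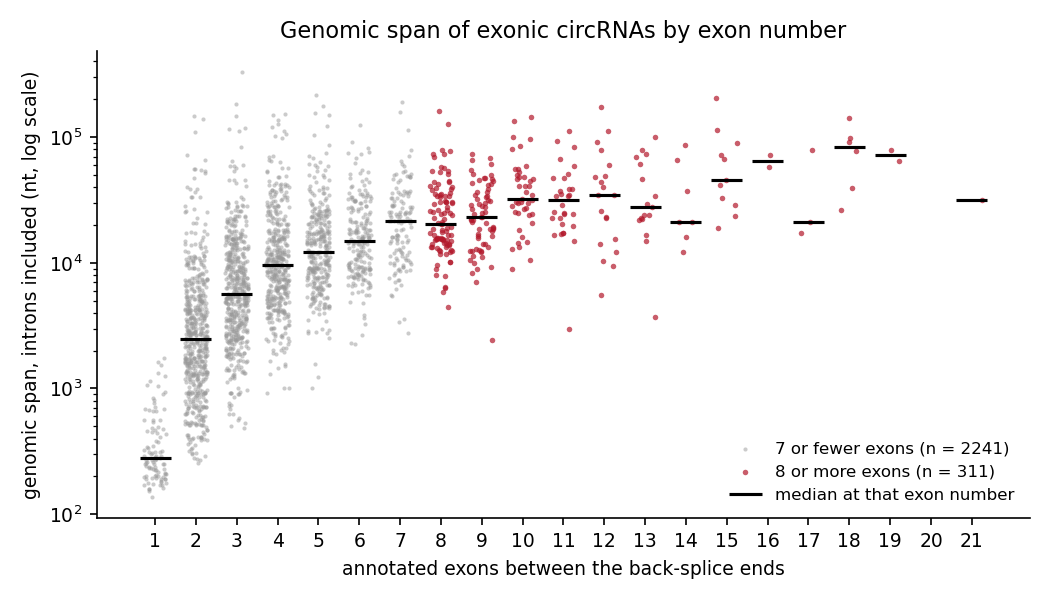
Genomic span in nt (log axis, introns included) of each exonic circRNA against its number of annotated exons, with 311 circles of 8 or more exons in red, 2241 with fewer in grey, and black lines at the median of each exon number. The medians of 7 and 8 exons, 21410 and 20540 nt, lie side by side.

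The introns that flanked the joined exons were examined because back-splicing brings their ends together. The intron upstream of many-exon circRNAs had a median length of 7764 nt, against 5504 nt for circles of 3 to 7 exons and 4434 nt for those of 1 or 2 exons. It exceeded 10000 nt in 43.5%, 34.1% and 28.7% of circles, respectively. The downstream intron showed no such order, with medians of 4304, 4454 and 4124 nt. Both flanks were known for 308 of the 311. Circles of the same gene share introns, so these values describe the table and were not tested.

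Most many-exon circRNAs shared a splice site with another circle. Of the 311, 123 had both ends in common with other exonic circRNAs, 141 had 1 end in common and 47 had none, so that 84.9% shared at least 1 end, compared with 77.6% for 3 to 7 exons and 63.0% for 1 or 2 exons. For 248 of them (79.7%) the shared end belonged to a circle with fewer exons. A shorter circle of the same gene lay wholly inside 259 of them (83.3%). The median over all 311 was 3 such circles, and 30 lay inside circRNA10842 of SMARCC1. Circles lying inside others were not counted for the other exon classes. Many-exon circles are thus not independent units of the genome, and their counts were read gene by gene as well as one by one.

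The table holds exonic circRNAs of only 4 chromosomes, so their distribution describes the table and not the genome. Chromosome 13 carried 223 many-exon circRNAs (71.7%), chromosome 8 carried 51, chromosome 7 carried 29 and chromosome 12 carried 8. As a share of each chromosome's exonic circRNAs this was 13.2%, 9.11%, 11.3% and 19.1%, the last from 42 circles.

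Many-exon circRNAs were rare molecules in both stages. They held 4511 of 114444 exonic back-splice reads, with a median of 4 reads per circle over the 6 libraries, against 10 with 3 to 7 exons and 11 with 1 or 2 exons. A single read was all the support for 51 of them (16.4%, compared with 9.31% and 9.06%), and 132 had 3 reads or fewer. At the other end 97 reached 10 reads and 7 reached 100. A mean SRPBM above 10 was reached by 0 of the 311, by 38 circles of 3 to 7 exons and by 9 of 1 or 2 exons. The reads were concentrated, with 24.1% on the top 3 circles, 40.8% on the top 10 and 69.5% on the top 50.

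The lower abundance held in each library. Mean SRPBM per many-exon circRNA was 0.922, 0.288 and 0.274 in Piglet-D30, against 0.364, 0.285 and 0.172 in Adult-D210. Circles of 3 to 7 exons had 2.47, 1.12 and 1.20 in Piglet-D30, against 1.42, 1.02 and 0.748 in Adult-D210. All 6 libraries had the lower mean in many-exon circles, by 2.68-fold in Piglet-D30 replicate 1 and by 3.58-fold to 4.38-fold in the other 5. The mean log2 ratio was -1.905 ± 0.26 (SD, n = 6 libraries), with p = 0.0312 in an exact two-sided sign-flip permutation test over libraries, the smallest p that 6 libraries can give, and -2.002 without Piglet-D30 replicate 1 (p = 0.0625 in the exact permutation test, the smallest for 5 libraries). With only circles of at least 10 reads in both classes, an alternative chosen after seeing the data, the mean log2 ratio was -1.33. Whether the length of a circle bears on its read count was not tested.

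**Figure D2:**
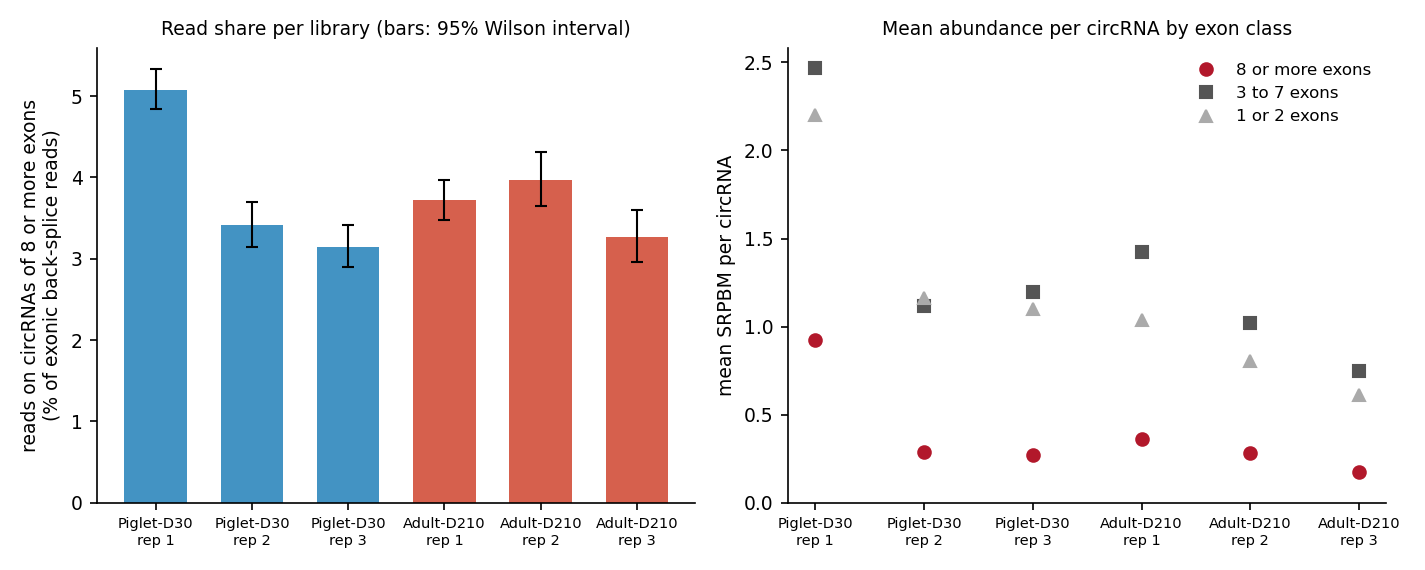
Left, reads on many-exon circRNAs as a percentage of exonic back-splice reads in each library, with 95% Wilson intervals that cover counting error only; right, mean SRPBM per circRNA in each library for the 3 exon classes. Piglet-D30 replicate 1 has the highest share, 5.08%, and in each library the many-exon mean lies below both other classes.

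Recurrence across libraries was low. Of the 311 many-exon circRNAs, 129 (41.5%) were seen only in Piglet-D30 replicate 1, where listing required a read, and these had a median of 2 reads and at most 10. Another 65 were seen in 2 libraries, 48 in 3, 28 in 4, 23 in 5 and 18 (5.79%) in all 6. With 3 to 7 exons 25.1% were seen in that library only and 18.9% in all 6, and with 1 or 2 exons 18.7% and 24.4%. In the 5 other libraries, many-exon circRNAs were detected at 28.9% and 28.3% in Piglet-D30 replicates 2 and 3 and at 31.8%, 27.3% and 20.9% in the Adult-D210 libraries. Circles of 3 to 7 exons were detected at 46.0%, 49.9%, 45.2%, 42.3% and 39.7% in the same order. The difference was -17.2 ± 3.24 percentage points (SD, n = 5 libraries) and had the same sign in all 5, with p = 0.0625 in an exact two-sided sign-flip permutation test, the smallest p that 5 libraries allow. With only circles of at least 10 reads in both classes, chosen after seeing the data, the difference shrank to -9.76 percentage points. Among circles with at least 10 reads, 18.6% of many-exon circRNAs and 36.9% of those with 3 to 7 exons were in all 6 libraries.

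**Figure D3:**
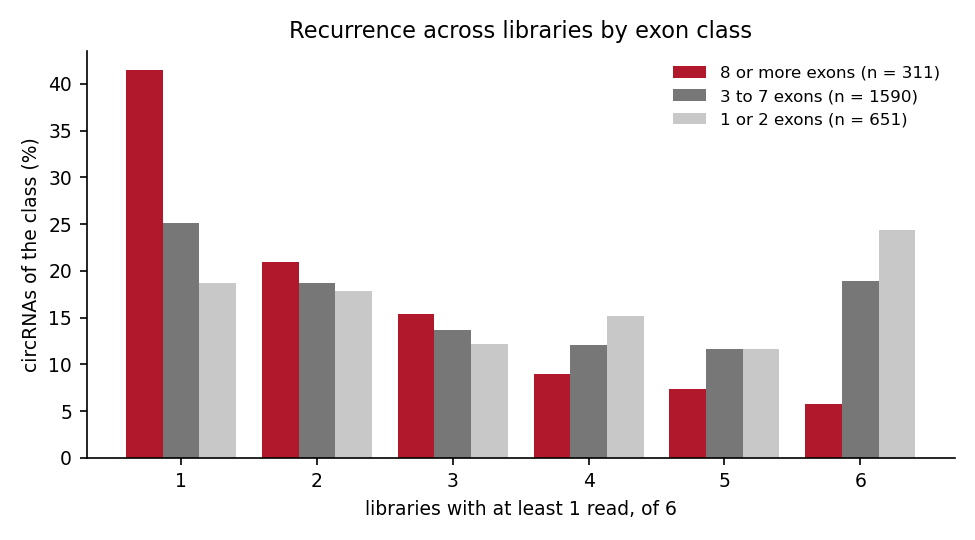
Percentage of the circRNAs of each exon class (311, 1590 and 651 circles) by the number of libraries, of 6, with at least 1 read. Many-exon circRNAs lead at 1 library, which is Piglet-D30 replicate 1 for all of them, with 41.5%, and trail at 6 libraries with 5.79%.

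The stages did not separate by presence alone. Leaving out Piglet-D30 replicate 1, 124 many-exon circRNAs were seen in a Piglet-D30 library and 146 in an Adult-D210 library, 88 of them in both. There were 3 Adult-D210 libraries against 2 of Piglet-D30 in this count. A read in all 3 Adult-D210 libraries was found for 27 (8.68%), compared with 25.3% with 3 to 7 exons and 30.3% with 1 or 2 exons. No read in any of them was found for 165 (53.1%), compared with 39.2% and 31.3%. All 3 Piglet-D30 libraries, the first of which had a read by selection, held 54 (17.4%), compared with 34.03% and 41.6%.

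The 18 many-exon circRNAs found in every library came from 15 host genes and held 45.7% of all many-exon reads, from 19 to 370 reads each. They had 8 to 14 exons and a median span of 21930 nt. Besides circles of RPTOR, TBCD, PAK2, ANKRD28, SENP2 and FAM208A, described with their values further on, they included 3 circles of SMARCC1 and 2 of ATP13A3, a P5-type transport ATPase, and 1 each of TTC3, DNAJC13, ATG7, DYRK1A, SPATA5, ACAD11 and a gene listed only by an Ensembl identifier. SPATA5, ACAD11, ATP13A3, DYRK1A and DNAJC13 were named for this recurrence, after their values were seen.

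Many-exon circRNAs came from 175 host genes, 26.6% of the 659 genes with an exonic circRNA in the table. A single one came from 108 genes, 2 from 36 and 3 or more from 31. Another exonic circle with fewer exons was listed for 155 of the genes, and many-exon circles then took a median of 5.32% of the gene's exonic circular reads. A many-exon circle was the most read circle in only 6 of these 155 genes. In RPTOR many-exon circles held 97.3% of reads, in PTPN21 56.9% and in SHQ1 27.01%, and in NEK4, VIPAS39 and MECOM, with 6, 2 and 6 many-exon reads, 85.7%, 66.7% and 40.0%. SHQ1, NEK4, VIPAS39 and MECOM were named after their values were seen. The other 20 genes had many-exon circles only, 22 circles with 169 reads in all.

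SMARCC1, a core subunit of SWI/SNF chromatin remodelling complexes, had the most many-exon circles, 13 with 624 reads, next to 30 shorter circles with 3002 reads. ANKRD28, which encodes a regulatory subunit of protein phosphatase 6, had 8 with 228 reads next to 16 shorter circles with 1056 reads. ATG7, the activating enzyme of the autophagy conjugation system, had 6 with 126 reads, 55.0% of the gene's exonic circular reads. ROBO2, a receptor for Slit guidance proteins, had 6 with 38 reads (33.9%). ATP2C1, the calcium and manganese pump of the Golgi, had 6 with 34 reads (5.89%). The 5 genes thus differed in how far circularisation reached the many-exon forms, from 5.89% of reads in ATP2C1 to 55.0% in ATG7.

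ATG7 gave circles with very wide spans. Its most read many-exon circle, circRNA11190 (Sscrofa10.2 chr13:74656936-74736227, plus strand), joined 17 exons over 79292 nt and had 7, 12 and 10 reads in Piglet-D30, against 5, 0 and 4 in Adult-D210. Its circRNA11195 had 8 exons and 8, 8 and 2 reads in Piglet-D30, against 10, 1 and 6 in Adult-D210, and circRNA11197 had 10 exons and 5, 0 and 4 against 15, 10 and 0 reads. Piglet-D30 lay above Adult-D210 in every library for circRNA11190 alone, and none of the 3 passed the test described below. In SMARCC1, circRNA10861, circRNA10862 and circRNA10863 started at the same position on chromosome 13 and took in 8, 9 and 10 exons. They had 47, 76 and 358 reads, so that the widest of the 3 was the most read. This order did not extend to fewer exons, since circRNA10860 with 7 exons had 429 reads. These ATG7 and SMARCC1 circles were chosen for display after their values were seen, except circRNA10863.

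By the Gene Ontology terms deposited with the host genes, many-exon circRNAs fell into several groups that overlap. Vesicle, Golgi and autophagy terms covered 68 of them. Chromatin terms covered 39, protein kinase and phosphatase terms 37, ubiquitin terms 32, GTPase regulation 25, and cilium, centrosome and microtubule terms 24. Actin and adhesion terms covered 24, RNA binding and processing terms 21, DNA repair and replication terms 20, and spermatogenesis and meiosis terms 7. No group applied to 118. As a share of the many-exon hosts and of all exonic hosts, respectively, the groups held 19.4% and 13.4% (vesicle, Golgi and autophagy), 13.7% and 10.3% (kinase and phosphatase), 12% and 6.53% (ubiquitin), 9.71% and 9.11% (cilium), 9.14% and 6.68% (chromatin), 9.14% and 7.44% (RNA binding). The remaining groups held 8.0% and 6.53% (GTPase regulation), 8.0% and 7.74% (actin and adhesion), 5.14% and 3.64% (DNA repair) and 2.86% and 3.34% (spermatogenesis and meiosis). These are counts, and no enrichment was tested.

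The circle with the most reads came from RPTOR, which is in the kinase and phosphatase group. RPTOR encodes raptor, the scaffold that brings substrates to the mTORC1 kinase complex. Its circRNA12283 (chr12:1651399-1657844, minus strand) had 8 exons in only 6446 nt and 370 reads, and the gene's only circle with fewer exons had 11. SRPBM was 16.2, 3.51 and 5.68 in Piglet-D30, against 14.4, 8.73 and 8.20 in Adult-D210. The groups overlapped because Piglet-D30 replicate 1 was the highest of all 6, whereas the other 2 Piglet-D30 libraries lay below every Adult-D210 library. PAK2, a kinase that acts downstream of the small GTPases Rac and Cdc42, gave circRNA11725 (chr13:142925649-142941310, minus strand) with 9 exons and 152 reads. Its SRPBM was 5.71, 5.35 and 3.38 in Piglet-D30, against 3.39, 2.64 and 3.01 in Adult-D210, and the groups overlapped narrowly. A circle of 6 exons, circRNA11723, shared an end with it and was more abundant, with 531 reads.

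PTPN21 encodes a non-receptor tyrosine phosphatase with a FERM domain. Its circRNA1049 (chr7:116904577-116921217, minus strand) joined 8 exons over 16641 nt and had 78 reads, more than any of the gene's 6 shorter circles, which had 59 reads in all. It had 36, 21 and 14 reads in Piglet-D30, against 0, 4 and 3 in Adult-D210, or an SRPBM of 6.42, 3.21 and 2.15 against 0, 0.659 and 0.410. Every Piglet-D30 library lay above every Adult-D210 library. The phosphatase 6 subunit gene ANKRD28 gave circRNA10605 with 11 exons and 136 reads, and its SRPBM of 2.68, 5.04 and 3.07 in Piglet-D30 overlapped with 4.61, 2.97 and 2.19 in Adult-D210.

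Of the 10 most read, circles of SMARCC1 and SENP2 were in the chromatin group. The SMARCC1 circle circRNA10863 (chr13:33793618-33841548, minus strand) had 10 exons, 358 reads and an SRPBM of 20.5, 6.11 and 10.4 in Piglet-D30, against 9.49, 7.75 and 2.46 in Adult-D210. FAM208A, also called TASOR and here in the RNA binding group, encodes a subunit of the HUSH complex that silences repeats and transgenes, and its circRNA11003 (chr13:42377857-42392300, minus strand) had 10 exons and 107 reads. Its SRPBM was 1.61, 2.60 and 1.996 in Piglet-D30, against 3.796, 3.13 and 2.87 in Adult-D210. FAM208A was the only one of the 10 most read in which all Adult-D210 libraries lay above all Piglet-D30 libraries, while SMARCC1 overlapped. SENP2, a protease that removes SUMO from proteins, gave circRNA11645 with 8 exons and 111 reads. Its SRPBM was 2.50, 5.20 and 1.996 in Piglet-D30, against 2.85, 1.48 and 2.73 in Adult-D210, again overlapping.

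TBCD, in the cilium, GTPase regulation and actin groups, encodes a folding cofactor of tubulin. Its circRNA12261 (chr12:289311-323714, plus strand) had 12 exons, 357 reads and an SRPBM of 18.4, 3.97 and 4.91 in Piglet-D30, against 15.3, 9.06 and 3.83 in Adult-D210. Within each stage the highest library exceeded the lowest by a wide margin, and the stages overlapped. A second TBCD circle with 13 exons, circRNA12262, began at the same position and had 40 reads.

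GK5 and TXNRD3 completed the 10 most read and, like ANKRD28, were in none of the host groups. GK5 encodes a putative glycerol kinase, and its circRNA11350 (chr13:90784807-90825326, minus strand) had 10 exons and 90 reads, 9, 0 and 9 in Piglet-D30, against 40, 30 and 2 in Adult-D210. Adult-D210 replicates 1 and 2 were far above the rest, while replicate 3 lay among the Piglet-D30 values. A circle of 6 exons from the same gene, circRNA11352, which shares 1 end with it, had 47, 7 and 20 reads in Piglet-D30, against 172, 199 and 33 in Adult-D210. TXNRD3, a thioredoxin and glutathione reductase of the testis, gave circRNA11248 with 9 exons and 25, 0 and 11 reads in Piglet-D30, against 14, 32 and 0 in Adult-D210. A library without a read occurred in both stages of TXNRD3.

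**Figure D4:**
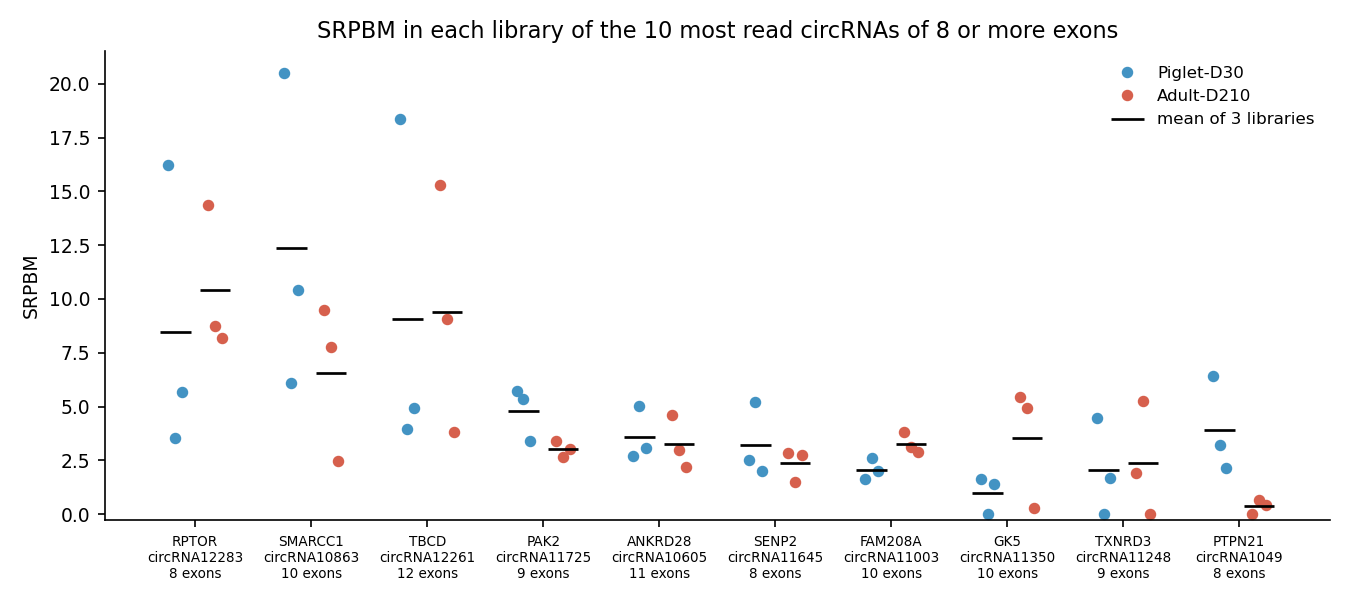
SRPBM in each of the 3 Piglet-D30 and 3 Adult-D210 libraries for the 10 many-exon circRNAs with the most reads, with the mean of 3 libraries as a black line. The stages are apart for PTPN21, higher in Piglet-D30, and FAM208A, higher in Adult-D210, and overlap for the other 8.

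Some further circles were named by host group. For spermatogenesis and meiosis the most read was circRNA10629 of the gene ENSSSCG00000030671, whose deposited terms include germ cell development and binding to the 3' UTR of mRNAs, with 9 exons and 15, 9 and 6 reads in Piglet-D30, against 11, 12 and 6 in Adult-D210. TDP1, which frees DNA ends from stalled topoisomerase, gave circRNA1078 with 8 exons and 25 reads. The ubiquitin ligase gene TTC3 gave circRNA12166 with 10 exons and 73 reads, 19, 20 and 8 in Piglet-D30, against 11, 6 and 9 in Adult-D210. RBM5, an RNA-binding regulator of splicing, gave circRNA10945 with 8 exons in 4482 nt and 30 reads. TTC3 and circRNA10629 had reads in every library and overlapping stages.

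As a class, many-exon circRNAs showed no stage difference in their share of exonic back-splice reads that passed a test. The share was 5.08%, 3.41% and 3.15% in Piglet-D30, against 3.72%, 3.97% and 3.26% in Adult-D210. Means were 3.88% ± 1.05 and 3.65% ± 0.36 (SD, n = 3 each), and the difference of -0.231 percentage points was smaller than the spread within Piglet-D30 (p = 0.9, exact two-sided permutation test, which cannot go below 0.1 with 3 against 3). Without Piglet-D30 replicate 1 the sign turned, to 0.370 percentage points (p = 0.3, exact permutation test). Within the 155 genes with both kinds of circle, the share was 8.99%, 6.30% and 5.65% in Piglet-D30, against 6.16%, 6.66% and 5.70% in Adult-D210. That difference was -0.805 percentage points (p = 0.7, exact permutation test) and 0.197 without Piglet-D30 replicate 1 (p = 0.7). In whole testis, fewer cells that make a circle and fewer circles per cell cannot be told apart.

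Circle by circle, the stage difference was tested with edgeR's quasi-likelihood test. Circles needed 10 reads or more, summed over the libraries, to enter the test. A circle counted as called when its Benjamini-Hochberg adjusted p was below 0.05 and its log2 fold change was 1 or more in either direction. Only 97 of the 311 many-exon circRNAs passed this filter, and the other 214 were not tested. Of the 97, 1 was called (1.03%), against 8.28% of all 1341 circRNAs tested. The call was lower in Adult-D210, where the background was 4.85%. Called higher were 0 of 97 by edgeR's quasi-likelihood test, where the background was 3.43%, with 4 higher at an unadjusted p under 0.05, and DESeq2 also called 0 higher. In all, 15 of the 97 (15.5%) had an unadjusted p under 0.05, compared with 25.1% of all tested. By direction these were 4 higher (background 7.98%) and 11 lower (background 17.2%). Of the 11 lower, 8 (of all 230 lower, 90) had no read in any Adult-D210 library and so passed the filter on Piglet-D30 reads alone, which fixed their direction, and nothing is read from this balance. The balance turned without Piglet-D30 replicate 1 in the test, to 8 higher (background 9.77%) and 4 lower (background 10.6%), a split added after seeing the data. It was 7 higher and 1 lower of 62 with that library left out of the filter too. In that fit 252 of all 1046 tested had an unadjusted p under 0.05, and their split by direction is not given here. With mapped reads as library size the balance was 0 higher and 18 lower in edgeR's quasi-likelihood test. That test then called 0 many-exon circRNAs higher, as did DESeq2 with its own size factors. Over all 1341 tested, mapped reads gave 349 with an unadjusted p under 0.05, and 9 were called higher and 68 lower. Those calls over all tested also leaned to lower. Their limit differs from the unadjusted p of the many-exon balance, so the splits are not compared. Whether the called share differs from that of other circles was not tested.

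The called circle was circRNA1049 of PTPN21, with a log2 fold change of -2.89 (SE 0.78, adjusted p = 0.0262, edgeR's quasi-likelihood test). The call rested on all 6 libraries. Leaving out any one of them kept the direction in all 6 fits, with log2 fold changes from -3.57 to -2.13, but put the adjusted p of edgeR's quasi-likelihood test between 0.0552 and 0.119. With DESeq2 it was called as well, at an adjusted p of 0.0446, and over all alternatives the adjusted p ranged from 0.0129 to 0.122. With 8 exons PTPN21 lies on the limit of the definition.

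Next by smallest p among circles with reads in both stages was circRNA11350 of GK5, with a log2 fold change of 2.25 (SE 0.79, adjusted p = 0.0930, edgeR's quasi-likelihood test). Without Adult-D210 replicate 3, which had 2 reads, it was called at 2.75 (adjusted p = 0.0331, edgeR's quasi-likelihood test), and over all alternatives the adjusted p ranged from 0.0151 to 0.324. For circRNA12283 of RPTOR the log2 fold change was 0.91 (SE 0.37, adjusted p = 0.144, edgeR's quasi-likelihood test). When Piglet-D30 replicate 1 was left out of both the filter and the test, it was called higher in Adult-D210, at 1.46 (adjusted p = 0.0394, edgeR's quasi-likelihood test), as the single call among 62 many-exon circRNAs, where 74 of all 1046 tested were called, 38 of them higher. Left out of the test alone, it gave 1.43 (adjusted p = 0.0577, edgeR's quasi-likelihood test), and over all alternatives the adjusted p for RPTOR ranged from 0.0394 to 0.746. For circRNA11003 of FAM208A the value was 1.08 (SE 0.49, adjusted p = 0.182, edgeR's quasi-likelihood test). The circles of SMARCC1, TBCD, PAK2, ANKRD28, SENP2 and TXNRD3 had log2 fold changes of -0.40, 0.62, -0.17, 0.24, -0.01 and 0.77 and did not pass the test. The sign for ANKRD28 turned when mapped reads served as library size and without Piglet-D30 replicate 1, and that for SENP2 turned with DESeq2 or without TMM.

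Among the 97, 12 (12.4%) had no read in any Adult-D210 library, compared with 120 of all 1341 tested (8.95%). Of the 12, 9 had fewer than 20 reads, a range in which 18.3% of all tested circles had none. These 12 passed the filter on Piglet-D30 reads alone, and listing required a read in Piglet-D30 replicate 1, so their direction was fixed by the way they entered and the folds are a description. With all 3 Piglet-D30 libraries the highest bound was that of circRNA11985 of ROBO2, whose reads were 14, 4 and 4 at 30 days and 0 in each adult, at least 2.84-fold lower in Adult-D210 against a floor of 3 reads per library. EPHA3, an ephrin receptor kinase, gave circRNA11958 with 13, 2 and 6 reads against 0, at least 2.71-fold lower. The Rac activator gene TIAM1 gave circRNA12062 with 16, 2 and 2 reads against 0, at least 2.65-fold lower. For each of these 3, Piglet-D30 replicate 1 supplied more than the other libraries together, and none was called. Without it, a comparison chosen after seeing the data, the bounds were at least 1.40-fold lower for both ROBO2 and EPHA3, and the TIAM1 mean lay under the floor, so that no fold can be given. The order changed as well, with GRAMD1C circRNA11857 at least 1.58-fold lower and PCCB circRNA11307 and SENP2 circRNA11647 both at least 1.57-fold lower. Only 5 of the 12 then had a Piglet-D30 mean above the floor. All circles in this paragraph were chosen after their values were seen.

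Stages without overlap in SRPBM were found in both directions. Adult-D210 was higher in 4 of 97 (background 3.73%) and lower in 16 of 97 (background 23.5%), 5 of the 16 (59 of 315 over all tested) having no read in any Adult-D210 library and so a direction fixed by the filter. Without Piglet-D30 replicate 1, a count added after seeing the data, it was higher in 12 of 97 (background 11.3%) and lower in 17 of 97 (background 25.7%). The 4 higher ones were circRNA11003 of FAM208A and circles of ATP13A3, GOLGA4 and TBC1D5, the last 3 with 20, 13 and 12 reads. The median log2 fold change was -0.52 over the 97 and -0.42 over all tested. With circles at 0 in a whole stage put at their bound it was -0.25 and -0.23. Without Piglet-D30 replicate 1 in the test the fitted medians were -0.38 and -0.20, and with it left out of the filter too they were 0.00 and -0.05. Both medians depended on scaling: with mapped reads as library size they moved to -1.02 and -0.90, and the calls over all tested from 46 higher and 65 lower to 9 higher and 68 lower.

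The many-exon circRNAs tested also had fewer reads than other tested exonic circles. Their median was 21 reads, against 30 with 3 to 7 exons, where 82 of 811 (10.1%) were called, and the median SE of the log2 fold change was 1.22 against 1.01. Tested intronic circles, 71 in number, were close to the many-exon ones. They had a median of 19 reads and a median SE of 1.21, and 2 of them (2.82%) were called. Of the 46 many-exon circRNAs with fewer than 20 reads, 0 were called by edgeR's quasi-likelihood test and 0 by DESeq2, with 6 at an unadjusted p under 0.05 in edgeR. Among all 458 circles in this range, edgeR's quasi-likelihood test also called 0, with 68 at an unadjusted p under 0.05. The 0 by edgeR is thus not particular to many-exon circles. DESeq2 called 0 of the 458 as well, but its default filter can leave circles with few reads without an adjusted p. Such circles were counted as not called, so nothing is read from its 0 here. With 20 to 49 reads edgeR's test called 0 of 38 many-exon circRNAs, 5 of which had an unadjusted p under 0.05. In that range 13 of 247 circles of 3 to 7 exons and 19 of all 427 (4.45%) were called. With 50 or more reads 1 of 13 many-exon circRNAs and 69 of 294 circles of 3 to 7 exons were called, against 92 of all 456 (20.2%). Depth thus differed between the classes, and its part in the number of calls was not tested.

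**Figure D5:**
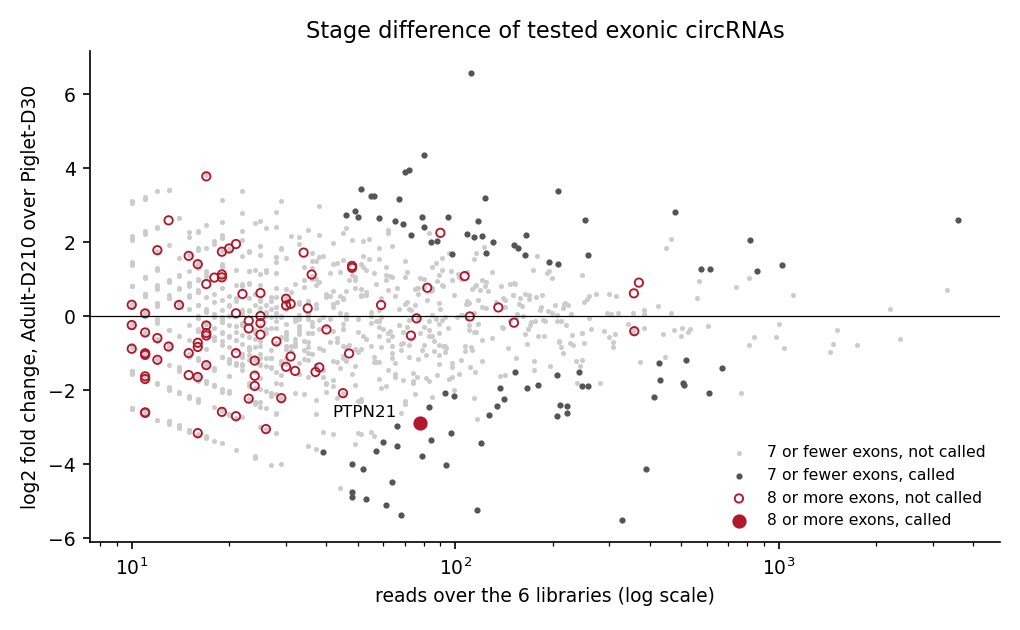
Log2 fold change of Adult-D210 over Piglet-D30 from edgeR against the reads over the 6 libraries (log axis) for 1156 tested exonic circRNAs with reads in both stages, 85 of them many-exon (red circles, filled where called). The single filled circle is PTPN21 at -2.89, and most many-exon circles sit at the left, where reads are fewest.

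By host group, the tested many-exon circRNAs numbered 23 for vesicle, Golgi and autophagy terms, 14 for chromatin, 13 for kinases and phosphatases, 9 for GTPase regulation, 8 for ubiquitin, 6 each for DNA repair, actin and adhesion, and RNA binding, 5 for cilium and centrosome, and 1 for spermatogenesis. The single call, PTPN21, was 1 of 13 for kinases and phosphatases, where 3 higher and 14 lower were called among all 149 tested circles of the group. With circles at 0 put at their bound, the median log2 fold change of that group was -0.72 over its 13 many-exon circRNAs and -0.44 over all 149 tested circles of the group. For the 23 of the vesicle group it was -0.01, against -0.14 over 212, and for the 14 of the chromatin group -0.37, against -0.12 over 123. It was 0.01 against -0.02 over 100 for GTPase regulation, -0.49 against -0.57 over 132 for ubiquitin and -0.30 against 0.04 over 44 for DNA repair. The remaining values were -0.30 against -0.31 over 119 for actin and adhesion, -1.18 against -0.21 over 148 for RNA binding, -0.36 against 0.00 over 121 for cilium and centrosome, and 0.30, from 1 circle, against 0.00 over 32 for spermatogenesis. With so few many-exon circles a group, these medians are a description.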

How the data were processed

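Testis libraries of 3 Piglet-D30 and 3 Adult-D210 boars were grouped by their labels. Reads were trimmed by the authors using Cutadapt and aligned using TopHat2, and TopHat-Fusion with CIRCExplorer2 supplied the junctions. For every circRNA the table deposited by the authors holds a raw count of junction reads in each library. A signal, SRPBM, was deposited beside it, the count over mapped reads and over the read length of 150. The submitters' processing notes name the build Sscrofa10.2, whose coordinates are given, counted from 1. Span is end minus start plus 1.

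Counts were tested with edgeR 4.0.16 in R 4.3.3 (TMM on the table's back-splice totals, robust quasi-likelihood fit, Adult-D210 against Piglet-D30) and adjusted by Benjamini-Hochberg over 1341 circRNAs. The SE of a log2 fold change was worked out as its size over the square root of the F statistic, and was not taken from the fit. The code was tested on simulated data. DESeq2 1.42.0 with its default filter was an alternative, and a circle without an adjusted p counted as not called. Exact permutation tests were run over libraries in Python 3.11.15. Mapped reads were worked out from count and SRPBM together and lay between 37364412 and 49179118, and back-splice reads were between 12701 and 33091. Replicates differed by more than counting noise (chi-square over degrees of freedom 3.87 to 4.97). Intervals and floors cover counting error only.

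Named by rule are called circRNAs, the 10 with the most reads, the 3 with the most exons, and the longest and shortest. The rule also names the 5 hosts with the most members and up to 2 circRNAs per host list. Other named circles fall outside the rule and were chosen afterwards, even where the text does not say so. For 1 of the circRNAs this rule names, the values are not reported here. Members and lists were chosen with earlier results of these data known. Of 25 host genes listed by Ensembl identifier, 23 were named through a gene name table. Circle sequences and linear RNA were not analysed here.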

Additional observations from a re-analysis of the deposited data

How the results depend on the processing

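The number of many-exon circRNAs called was 1, lower in Adult-D210, and stayed at 1 without TMM, with mapped reads as library size, with at least 20 reads, with exonic circRNAs only, without a fold limit, with DESeq2 and with the older form of edgeR's quasi-likelihood fit, which was added after seeing the data. With a fold limit, these settings called 77 to 124 over all circRNAs tested. With no filter 2 of 311 were called, 1 of them higher, where 128 of all 4350 were called, 51 of them higher. On the 5 libraries other than Piglet-D30 replicate 1, 1 of 62 was called higher and 0 lower, where 38 of all 1046 were called higher and 36 lower. Leaving out single libraries gave 0 to 1 calls of 97, 0 to 1 higher and 0 to 0 lower. Calls over all 1341 tested then fell as well, from 111 to between 37 and 78, with 13 to 34 higher and 24 to 44 lower. With at least 7 exons as the limit, which adds 45 tested circles of 7 exons, 6 were called, 2 higher and 4 lower. With at least 9 exons 0 of 63 were called and 0 lower by edgeR's quasi-likelihood test, as by DESeq2. Of these 63, 9 had an unadjusted p under 0.05 in edgeR. Moving the limit leaves the calls over all tested at 111 of 1341. The replicate numbers are shared by both stages but did not pair the libraries (correlations of same-numbered deviations 0.051, -0.015 and -0.031); with the replicate block 0 were called and 0 lower, and calls over all circRNAs went from 111 to 33. With few calls, each gained or lost circle changes these counts.

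The read share differed between stages by -0.231 points. It was 0.0778 points with only circRNAs of at least 10 reads, and -0.598 to 0.370 without single libraries; within hosts it was -1.47 to 0.197. With 3 libraries a stage or fewer these tests could not pass, so their p says nothing about stability. The log2 ratio of mean SRPBM was -2.002 to -1.86 without single libraries, where 5 libraries cannot give a p below 0.0625, and -1 for medians in Piglet-D30 replicate 1. The cause was not tested. The difference in detected share stayed negative under each alternative run, but its size did not hold: it was -9.76 points with only circles of at least 10 reads, added after seeing the data, and -23.9 points against 1 or 2 exons. The median span was 24760 to 30130 nt under its alternatives.

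Some log2 fold changes of named circles turned sign. Without single libraries it ran from -0.348 to 0.061 for circRNA11725, from -0.064 to 0.711 for circRNA10605, from -0.317 to 0.698 for circRNA11645 and from -0.555 to 1.657 for circRNA11248. For circRNA10605 it was -0.148 with mapped reads and -0.048 on the 5 other libraries. For circRNA11645, at -0.005, it was 0.094 without TMM, 0.019 with no filter, 0.101 with at least 20 reads, 0.012 with exonic circRNAs only, 0.101 with the replicate block and 0.059 with DESeq2. With fewer than 10 reads, 214 of the 311 many-exon circRNAs stayed outside the main test. What part depth had in the number of calls was not tested.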
